A study of Mus musculus with 6 samples.

Results

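The 10 imprinted genes, H19, Igf2, Igf2r, Meg3, Dlk1, Peg3, Peg10, Cdkn1c, Grb10 and Impact, were followed in blood cells grown from mouse embryonic stem cells. They were chosen by name, and every probe set annotated to 1 of these symbols and to no other was taken, whatever its level. This gave 30 probe sets for 9 of the 10 genes, of 34958 probe sets with a single symbol, which name 18194 genes, and 45101 on the arrays. The probe set that covers H19 is annotated to Mir675 as well, so no value is given for H19. Igf2r also has 1 probe set that it shares with Airn, which was not used.

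The series compared 3 arrays labelled Gata3-/- with 3 labelled Gata3+/-. Stem cells with no intact copy of Gata3, or with 1, were both differentiated on OP9 and OP9-DL1 cells, with IL-7 and Flt3L present. OP9 cells are bone marrow stromal cells, of which the DL1 form carries a Notch ligand, and being of mouse origin their RNA binds to the same probe sets. Cells called T-cell progenitors were then isolated by flow sorting, with markers that the sources used here do not give. The replicates are called biological, but separate cultures or stem cell clones are not stated, so p-values cover only the spread among these arrays.

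Imprinted genes are expressed mainly from the copy inherited from a single parent, and methylation of CpG sites at control regions marks which copy that is. Igf2, Dlk1, Peg3, Peg10 and Impact are expressed from the paternal copy in mice, and H19, Igf2r, Meg3 and Cdkn1c from the maternal copy. Grb10 is maternal in most tissues and paternal in neurons. Many of these genes set fetal growth, and several are known to vary in expression between stem cell lines. An array measures the RNA of both copies together, so neither the imprint nor the allele in use was measured here.

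CpG sites are the letters on which an imprint is written, and the start regions of the members differed widely in how many they hold. RefSeq promoter windows of assembly GRCm38.p6 were available for 6 of the 10 genes. The 250 bases upstream of each of 11 annotated starts held 0 to 40 CpG sites, against a median of 6 over 32851 such windows of all genes. The following windows are shown because they include the 2 richest in CpG, from Grb10 and Igf2r, and 2 near the middle, from Dlk1 and Peg3. They lie at chr11:12037421-12037670 on the minus strand for Grb10, chr17:12769707-12769956 on the minus strand for Igf2r, chr12:109452573-109452822 on the plus strand for Dlk1 and chr7:6730420-6730669 on the minus strand for Peg3. Each is written 5′ to 3′ along the gene, and capitals mark CpG sites.
Grb10: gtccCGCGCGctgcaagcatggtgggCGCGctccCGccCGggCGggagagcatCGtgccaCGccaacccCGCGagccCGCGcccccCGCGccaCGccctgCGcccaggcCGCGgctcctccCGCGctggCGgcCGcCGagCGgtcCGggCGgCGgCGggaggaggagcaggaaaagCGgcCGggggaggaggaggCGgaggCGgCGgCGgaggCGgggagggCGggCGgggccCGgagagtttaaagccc
Igf2r: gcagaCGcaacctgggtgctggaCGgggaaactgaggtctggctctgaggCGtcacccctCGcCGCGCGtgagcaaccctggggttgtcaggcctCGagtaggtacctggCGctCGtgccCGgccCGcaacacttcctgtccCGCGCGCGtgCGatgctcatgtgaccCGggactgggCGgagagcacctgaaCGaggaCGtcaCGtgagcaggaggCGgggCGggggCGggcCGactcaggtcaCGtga
Dlk1: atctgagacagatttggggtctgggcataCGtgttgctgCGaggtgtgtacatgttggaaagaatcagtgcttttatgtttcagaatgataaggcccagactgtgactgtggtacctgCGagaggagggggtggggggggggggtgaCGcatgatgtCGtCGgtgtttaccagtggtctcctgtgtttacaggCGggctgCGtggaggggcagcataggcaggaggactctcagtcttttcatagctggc
Peg3: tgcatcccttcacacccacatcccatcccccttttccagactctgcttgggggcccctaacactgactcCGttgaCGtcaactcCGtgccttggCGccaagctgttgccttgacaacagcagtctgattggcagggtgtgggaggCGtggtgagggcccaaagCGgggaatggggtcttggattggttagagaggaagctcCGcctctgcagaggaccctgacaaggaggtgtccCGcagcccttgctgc
The Grb10 window held 40 CpG sites, a number reached by 1.31% of all windows, although another annotated Grb10 start held 8. The Igf2r window held 27, reached by 8.56% of windows, while Dlk1 and Peg3 held 8 each, reached by 43.0%. The 4 Igf2 starts held 1, 6, 10 and 22 CpG sites and the Meg3 starts held 0 and 10, so starts of a single gene differed as well. The sequences AGATAA and TGATAA, forms of the motif that GATA factors bind, were searched on both strands. They occurred in 1 of the 11 windows, that of Dlk1, and in 16.6% of all windows. The windows were taken by their place upstream of a start, and whether they overlap a control region was not examined. The capitals therefore mark CpG sites and not known imprint sites. Methylation was not measured, and a match in these letters is not a binding site.

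Most of the probe sets of these genes were not measurable. Levels are log2 GC-RMA intensities, and a probe set was tested when it reached 4 on at least 3 of the 6 arrays. Of the 30 probe sets 10 were tested, from Igf2, Igf2r, Meg3, Peg3, Grb10 and Impact, against 20102 of the 45101 on the arrays. The other 20 lay between 1.93 and 4.08, and 19 of them stayed under 4 on all arrays. In 18 of the 20 the 6 arrays spanned less than 0.1. None of the 10 tested probe sets passed an adjusted p of 0.05 in limma, against 4.37% of all 20102 tested (2.25% higher and 2.12% lower in Gata3-/- arrays). At an unadjusted p under 0.05 there was 1 of 10, against 23.5% of all, and 1 of 10 had genotypes that did not overlap, against 30.6% of all. The differences, Gata3-/- minus Gata3+/-, were positive in 5 and negative in 5. Their median was 0.02, against -0.03 over all tested probe sets.

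**Figure D1:**
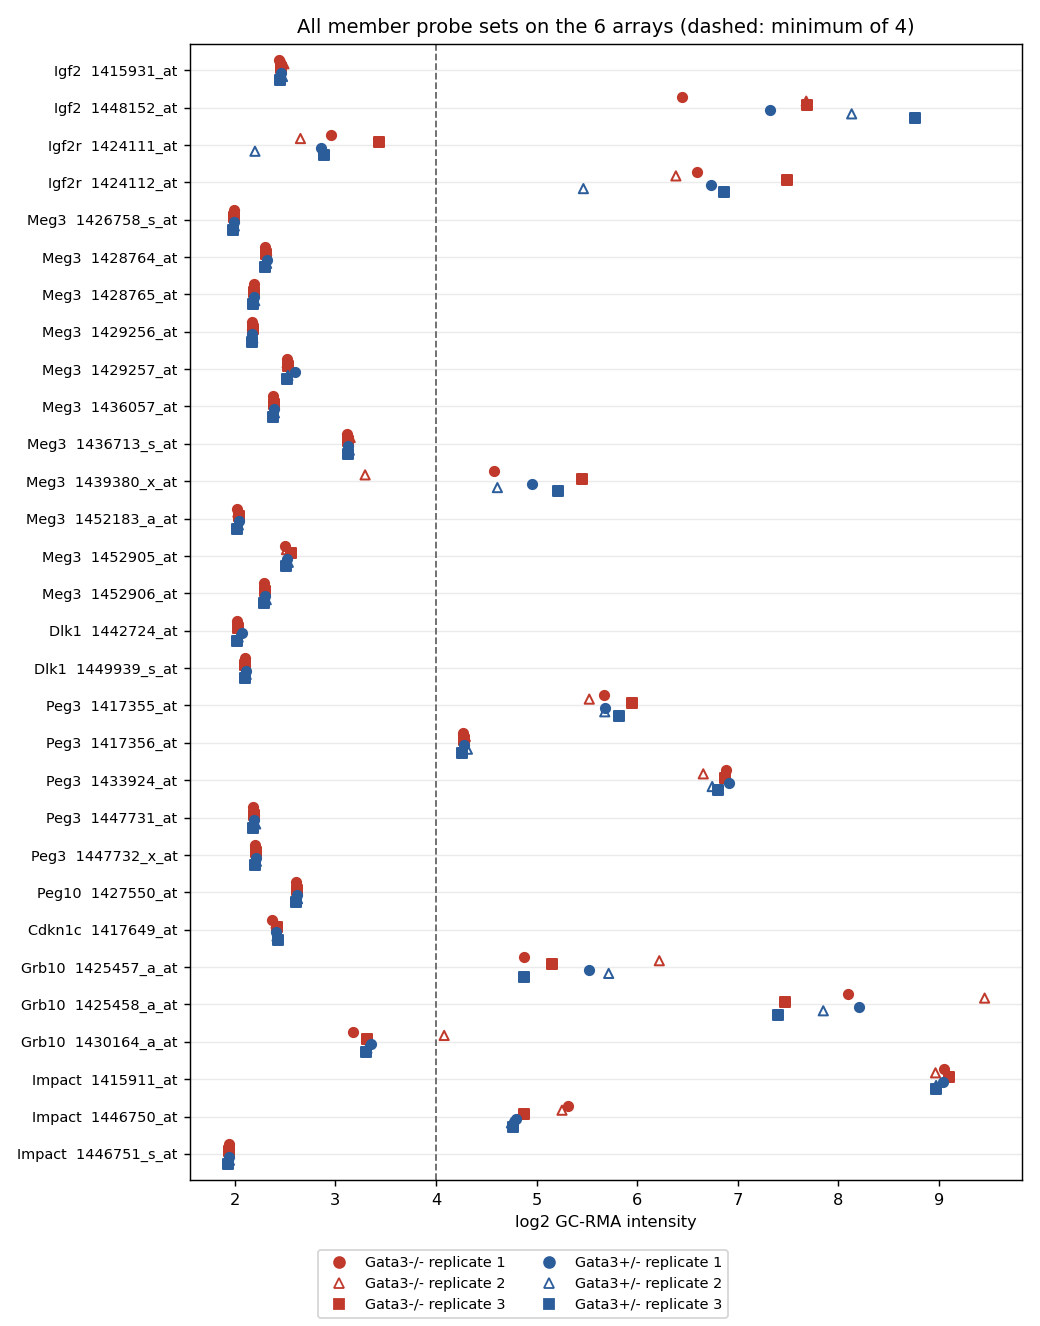
Log2 GC-RMA intensity (horizontal axis) of all 30 member probe sets (rows) on the 6 arrays, with Gata3-/- in red and Gata3+/- in blue and a marker shape for each replicate number. The dashed line is the minimum of 4, and 20 of the 30 rows were left untested, most with points that lie on top of each other between 1.93 and 3.15.

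The arrays differed in the level of stromal markers, whose mean stood lowest on replicate number 2 in both genotypes. Of 23 stromal or fibroblast markers with a probe set annotated to them alone, 22 reached the minimum. Of the 23 markers 19 were lowest on replicate 2 in both genotypes, whereas Cxcl12 was highest there in both. Their mean log2 level was 8.38, 7.36 and 9.31 on Gata3-/- replicates 1, 2 and 3, against 9.38, 7.77 and 9.39 on Gata3+/- replicates 1, 2 and 3. Their summed intensity ran from 8510 to 33082 in Gata3-/- arrays and from 11461 to 34934 in Gata3+/- arrays. In a bulk sample, fewer cells of a type and less RNA per cell cannot be told apart. All 10 haematopoietic markers were present, with mean levels between 12.95 and 13.09. Of 11 T-lineage markers 10, Cd3e among them, stayed under the minimum on all arrays. Cd5 alone reached it, with means of 6.19 in Gata3-/- and 4.75 in Gata3+/- arrays. The name T-cell progenitor was thus not borne out by 10 of the 11, and the stage of the cells was not tested. Of 8 endoderm markers Afp alone reached the minimum, of 8 muscle markers 2 and of 3 trophoblast markers 0. Over the tested probe sets, pairs of arrays correlated at 0.974 to 0.990 where the genotype was the same and at 0.956 to 0.982 where it was not.

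Igf2, the fetal growth factor of the group, was measured on every array, with genotypes that overlapped. Its probe set 1448152_at stood at 6.45, 7.68 and 7.69 on Gata3-/- replicates 1, 2 and 3, and at 7.32, 8.13 and 8.77 on Gata3+/- replicates 1, 2 and 3. Gata3-/- replicate 1 was the lowest and Gata3+/- replicate 3 the highest. The means were 7.27 ± 0.71 in Gata3-/- and 8.07 ± 0.72 in Gata3+/- arrays (SD, n = 3 each). The difference was -0.80 (SE 0.49, 95% interval -2.02 to 0.42, adjusted p = 0.397 in limma). It was -0.39 without Gata3-/- replicate 1 and -0.45 without Gata3+/- replicate 3. Replicate 2 minus the mean of the other replicates was 0.61 in Gata3-/- and 0.09 in Gata3+/- arrays, where the same quantity for the stromal mean was -1.48 in Gata3-/- and -1.61 in Gata3+/- arrays. The second Igf2 probe set, 1415931_at, stayed between 2.44 and 2.49 on all 6 arrays.

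Igf2r, the receptor that binds IGF2 and carries it to lysosomes for breakdown, was also measured by 1 of its 2 probe sets. On 1424112_at it stood at 6.59, 6.39 and 7.49 on Gata3-/- replicates 1, 2 and 3, against 6.73, 5.47 and 6.86 on Gata3+/- replicates 1, 2 and 3. Replicate 2 was the lowest in both genotypes, and minus the mean of the others it was -0.65 in Gata3-/- and -1.33 in Gata3+/- arrays. The mean of the stromal markers was lowest on the same arrays, and the part of stroma in the Igf2r level was not tested. Means were 6.82 ± 0.59 in Gata3-/- and 6.35 ± 0.77 in Gata3+/- arrays (SD, n = 3 each), a difference of 0.47 (SE 0.47, 95% interval -0.70 to 1.63, limma adjusted p = 0.610). Without Gata3+/- replicate 2 the difference was 0.03, and without both arrays numbered 2 it was 0.24. The dimmer probe set 1424111_at, under the minimum, stood at 2.95, 2.65 and 3.43 on Gata3-/- and at 2.86, 2.20 and 2.89 on Gata3+/- replicates 1, 2 and 3. It was likewise lowest on replicate 2 of each genotype.

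Grb10, an adaptor that binds the insulin and IGF1 receptors and dampens their signal, was highest on Gata3-/- replicate 2 with all 3 of its probe sets. On 1425458_a_at it stood at 8.10, 9.46 and 7.47 on Gata3-/- replicates 1, 2 and 3, against 8.21, 7.85 and 7.40 on Gata3+/- replicates 1, 2 and 3. Gata3-/- replicate 2 lay 1.67 above the mean of the other Gata3-/- arrays, while Gata3+/- replicate 2 lay 0.05 above the mean of its own. The probe set 1425457_a_at gave 4.88, 6.22 and 5.16 on Gata3-/- and 5.52, 5.72 and 4.87 on Gata3+/- replicates 1, 2 and 3. The dim 1430164_a_at gave 3.17, 4.08 and 3.31 on Gata3-/- and 3.36, 3.31 and 3.30 on Gata3+/- replicates 1, 2 and 3. The genotypes overlapped on all of them.

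Neither tested Grb10 probe set passed. The means of 1425458_a_at were 8.34 ± 1.02 in Gata3-/- and 7.82 ± 0.40 in Gata3+/- arrays (SD, n = 3 each). The difference was 0.52 (SE 0.53, 95% interval -0.79 to 1.83, limma adjusted p = 0.613), and that of 1425457_a_at was 0.05 (SE 0.41, adjusted p = 0.962). Without Gata3-/- replicate 2 the differences were -0.03 and -0.36. Grb10 lies on chromosome 11, where the 885 other tested genes had a median difference of 0.33, with 94 called higher and 2 lower. Measured from that median, its differences were 0.20 and -0.28.

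Other genes of insulin-like growth factor action were counted at 1 probe set per gene, the brightest tested. Of 16 listed genes 15 had a probe set annotated to them alone, and 9 were tested. In limma 0 passed, against 5.27% of all 10302 genes. At an unadjusted p under 0.05 there were 3 of the 9, against 25.8% of all genes, with 4 differences positive and 5 negative. The median was -0.47, against -0.02 over all genes and -0.61 over the stromal markers. Igfbp7, chosen after its values were seen, was like the stromal mean lowest on replicate 2. Replicate 2 minus the others was -2.81 in Gata3-/- and -2.65 in Gata3+/- arrays. The part of stroma in these differences was not tested. Igf1r, the receptor through which IGF2 signals growth, stood at 9.18, 9.28 and 9.11 on Gata3-/- and at 8.60, 8.70 and 8.86 on Gata3+/- replicates 1, 2 and 3. These values do not overlap (difference 0.47, SE 0.10, limma adjusted p = 0.0574). The call was gained under a stricter filter (0.0477), a variance trend with robust eBayes (0.0475) and array weights (0.0259), but not in the other alternatives. Of its 3 other probe sets the largest difference was 0.26 and none passed.

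Igfbp4, a secreted protein that holds IGFs away from their receptor, stood at 9.28, 8.57 and 9.60 on Gata3-/- and at 10.34, 10.17 and 10.96 on Gata3+/- replicates 1, 2 and 3. Its brightest probe set, 1437405_a_at, differed by -1.34 (SE 0.33, limma adjusted p = 0.0795). Igfbp4 lies on chromosome 11, where the tested genes other than Grb10 had a median difference of 0.33. All 6 tested Igfbp4 probe sets were lower in Gata3-/- arrays, with differences between -1.61 and -0.82. Of the 6, 1421992_a_at fell by 1.04 (adjusted p = 0.0383) and 1421991_a_at fell by 0.82 (adjusted p = 0.0395). The probe set 1421991_a_at was under the minimum on all Gata3-/- arrays. It passed the filter only through the Gata3+/- arrays, so its call is not independent of the filter. Igf2bp3, an RNA-binding protein that binds Igf2 RNA, differed by -0.47 (adjusted p = 0.0757). Igf1, chosen after its values were seen, had 4 tested probe sets with differences from -1.18 to -0.68, none of which passed.

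Meg3, a long noncoding RNA, was measured by a single probe set and in each genotype was lowest where the stromal mean was lowest. Of its 11 probe sets 1439380_x_at alone was tested, and the other 10 lay between 1.98 and 3.15. It stood at 4.57, 3.30 and 5.45 on Gata3-/- replicates 1, 2 and 3, against 4.95, 4.61 and 5.22 on Gata3+/- replicates 1, 2 and 3. Replicate 2 was the lowest array of each genotype, and minus the mean of the others it was -1.72 in Gata3-/- and -0.47 in Gata3+/- arrays. The stromal mean was lowest on the same arrays, and its part in the Meg3 level was not tested. The genotype means were 4.44 ± 1.08 in Gata3-/- and 4.93 ± 0.30 in Gata3+/- arrays (SD, n = 3 each). The difference was -0.49 (SE 0.55, 95% interval -1.84 to 0.87, limma adjusted p = 0.652), and 0.09 without Gata3-/- replicate 2. That array lay under the minimum of 4, and with values under the minimum set to it the difference was -0.25. A probe set whose name ends in x can bind other sequences, so the identity of this signal rests on 1 of 11 probe sets.

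**Figure D2:**
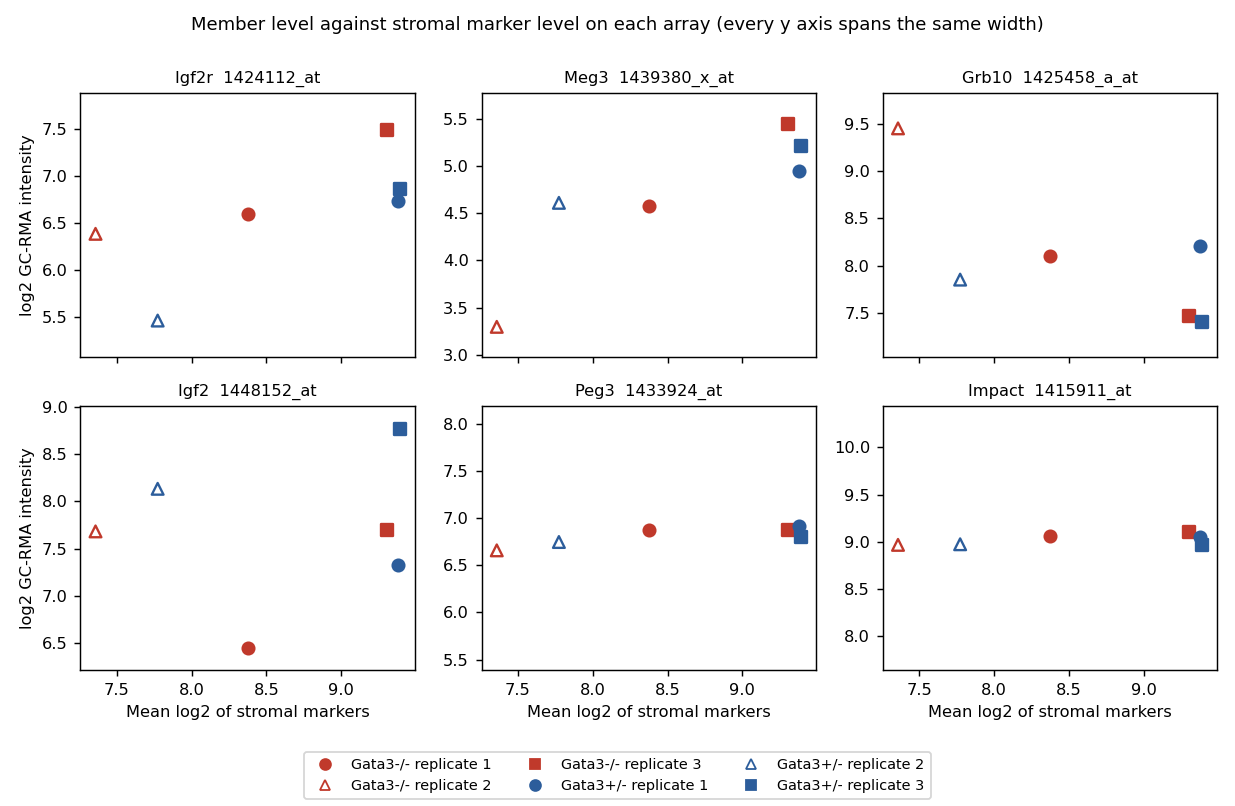
Log2 GC-RMA intensity of 1 probe set of each of 6 members (vertical axes, all of equal width) against the mean log2 level of the stromal markers on the same array (horizontal axis), with Gata3-/- in red, Gata3+/- in blue and open triangles for replicate 2. Igf2r and Meg3 have their lowest points in each genotype on replicate 2, Grb10 has its highest on Gata3-/- replicate 2 at 9.46, and Peg3 and Impact lie nearly flat.

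Dlk1, the paternally expressed neighbour of Meg3 that encodes a membrane protein of the Notch ligand family, was not measurable. Its 2 probe sets stayed between 2.02 and 2.11 on all 6 arrays. Rian and Mirg, noncoding RNAs of the same domain, reached at most 2.38. Of these 4 genes of the domain Meg3 alone was measured.

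Peg3, a zinc finger protein of paternal expression, varied little over the arrays. On 1433924_at it stood at 6.88, 6.66 and 6.87 on Gata3-/- and at 6.91, 6.75 and 6.80 on Gata3+/- replicates 1, 2 and 3. The difference was -0.02 (SE 0.09, 95% interval -0.25 to 0.22, limma adjusted p = 0.933). On 1417355_at it stood at 5.67, 5.52 and 5.95 on Gata3-/- and at 5.68, 5.68 and 5.82 on Gata3+/- replicates 1, 2 and 3, a difference of -0.01 (SE 0.13, adjusted p = 0.971). The third, 1417356_at, lay between 4.26 and 4.31 on all arrays, close to the minimum. On 1433924_at replicate 2 was again the lowest in each genotype, and minus the mean of the others it was -0.22 in Gata3-/- and -0.11 in Gata3+/- arrays. On 1417355_at this quantity was -0.29 in Gata3-/- and -0.07 in Gata3+/- arrays. The 2 remaining Peg3 probe sets lay between 2.18 and 2.21.

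Impact, a regulator of the translation control kinase GCN2, was bright and even. Its probe set 1415911_at stood at 9.06, 8.97 and 9.11 on Gata3-/- and at 9.05, 8.97 and 8.97 on Gata3+/- replicates 1, 2 and 3. The difference was 0.05 (SE 0.07, 95% interval -0.13 to 0.23, limma adjusted p = 0.753). A dimmer probe set, 1446750_at, stood at 5.31, 5.25 and 4.88 on Gata3-/- and at 4.80, 4.75 and 4.76 on Gata3+/- replicates 1, 2 and 3. This was the only tested member probe set whose genotypes did not overlap. Its difference was 0.38 (SE 0.13, 95% interval 0.06 to 0.70, unadjusted p = 0.0279, limma adjusted p = 0.157), so it did not pass. The third, 1446751_s_at, stayed between 1.93 and 1.95.

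Peg10, a retrotransposon-derived gene of the placenta, and Cdkn1c, an inhibitor of cyclin-dependent kinases that limits growth, were not measurable. The Peg10 probe set lay between 2.60 and 2.62 and that of Cdkn1c between 2.37 and 2.43. Each has 1 probe set with its symbol alone.

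**Figure D3:**
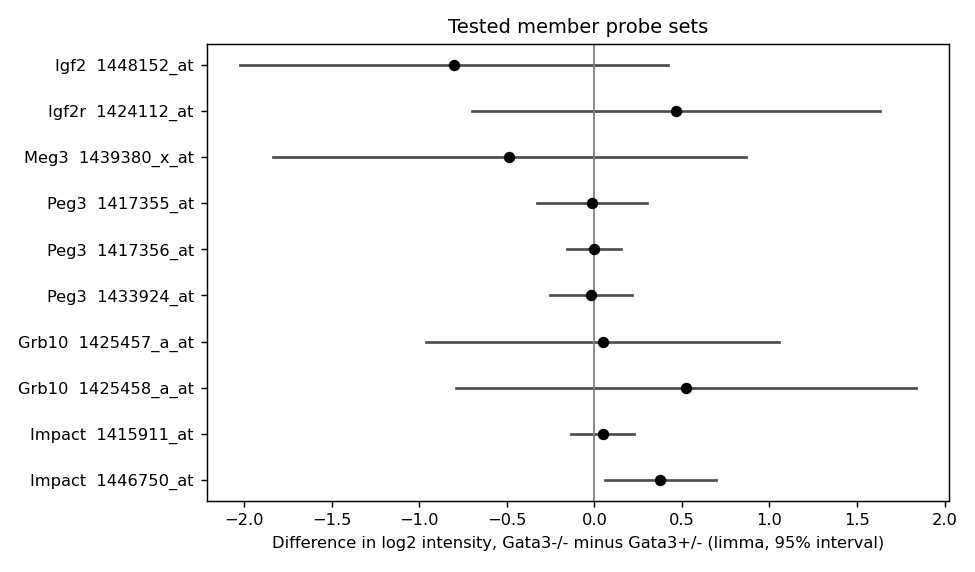
Difference in log2 GC-RMA intensity, Gata3-/- minus Gata3+/- (horizontal axis), for the 10 tested member probe sets (rows), with points for the limma estimate and bars for its 95% interval. In 9 rows the interval includes 0, those of Igf2, Igf2r, Meg3 and Grb10 are the widest, and that of Impact 1446750_at runs from 0.06 to 0.70 before adjustment.

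The spread among arrays was thus uneven over the members. Igf2, Igf2r, Meg3 and Grb10 each had a probe set that ranged over more than 2 log2 units, whereas no Peg3 or Impact probe set ranged over more than 0.56. The 3 genes most like Igf2, Meg3 and Grb10 were taken by Pearson's r over the 6 arrays, among 587 genes with a range of at least 2. The arrays differ in stromal level and in genotype together, so r is given as a description. For Meg3 they were Pdgfra, a stromal receptor of the marker list (r = 0.952), Eya4 (0.950) and Osmr (0.941). For Grb10 they were Tfr2, a transferrin receptor (0.944), Klf1, a factor of red cell development (0.935), and Trib2 (0.914). For Igf2 the highest values were lower, at 0.756 for Atp8a2, 0.752 for Tspan15 and 0.738 for Prtn3.

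Klf1 stood at 8.54, 10.04 and 8.21 on Gata3-/- and at 8.19, 8.51 and 7.59 on Gata3+/- replicates 1, 2 and 3. Because Klf1 was chosen by r with Grb10, its peak, like that of Grb10, on Gata3-/- replicate 2 is no separate result. Epor, the erythropoietin receptor and an erythroid marker, was also highest there, at 7.08, 7.93 and 6.32 on Gata3-/- replicates 1, 2 and 3. The mean of the 6 erythroid markers, of which 5 reached the minimum, was instead lowest on replicate 2 of each genotype. Replicate 2 minus the mean of the others was -0.96 in Gata3-/- and -0.78 in Gata3+/- arrays. Their summed intensity ran from 10669 to 36403 in Gata3-/- and from 23199 to 47177 in Gata3+/- arrays. The embryonic globin gene Hbb-y stood at 14.08, 12.26 and 13.96 on Gata3-/- replicates 1, 2 and 3. For the adult globin gene Hba-a1, the probe set read, annotated to it alone, stayed between 2.29 and 2.32 on all arrays. Probe sets with several symbols were not used, so the absence of adult globin RNA was not tested. The part of red cell precursors in the Grb10 level was not tested.

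Among 55 further imprinted genes 50 had a probe set annotated to them alone, and 24 were tested. In limma 0 were called higher and 2 lower in Gata3-/- arrays, against 2.86% higher and 2.41% lower over all 10302 genes. An unadjusted limma p under 0.05 was reached by 8 of the 24, against 25.8% of all genes. Of the differences 9 were positive and 15 negative, with a median of -0.15 against -0.02 over all genes. Both called genes lie on chromosome 2, and the share of all genes called there was not counted. Gatm, which makes the creatine precursor guanidinoacetate and is imprinted in mouse placenta, stood at 10.42, 9.91 and 9.73 on Gata3-/- and at 11.64, 11.92 and 11.54 on Gata3+/- replicates 1, 2 and 3. It fell by 1.68 (SE 0.21, adjusted p = 0.0306), with no overlap.

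Mcts2, a paternally expressed retrocopy of Mcts1 that lies within H13, stood at 9.96, 10.03 and 9.82 on Gata3-/- and at 10.94, 11.04 and 10.84 on Gata3+/- replicates 1, 2 and 3. It fell by 1.00 (SE 0.09, adjusted p = 0.0281), with no overlap. Its probe set names Mcts2 alone, but the copies are alike in sequence, so the source of the signal is uncertain. H13, the host gene, had 4 tested probe sets with differences from -0.29 to 0.46, none of which passed. In each fit that left out 1 array both missed the threshold, with adjusted p between 0.0699 and 0.105 for Gatm and between 0.0648 and 0.105 for Mcts2. Their differences stayed between -1.88 and -1.54 for Gatm and between -1.05 and -0.94 for Mcts2, and over all probe sets those fits called 0 to 9.

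**Figure D4:**
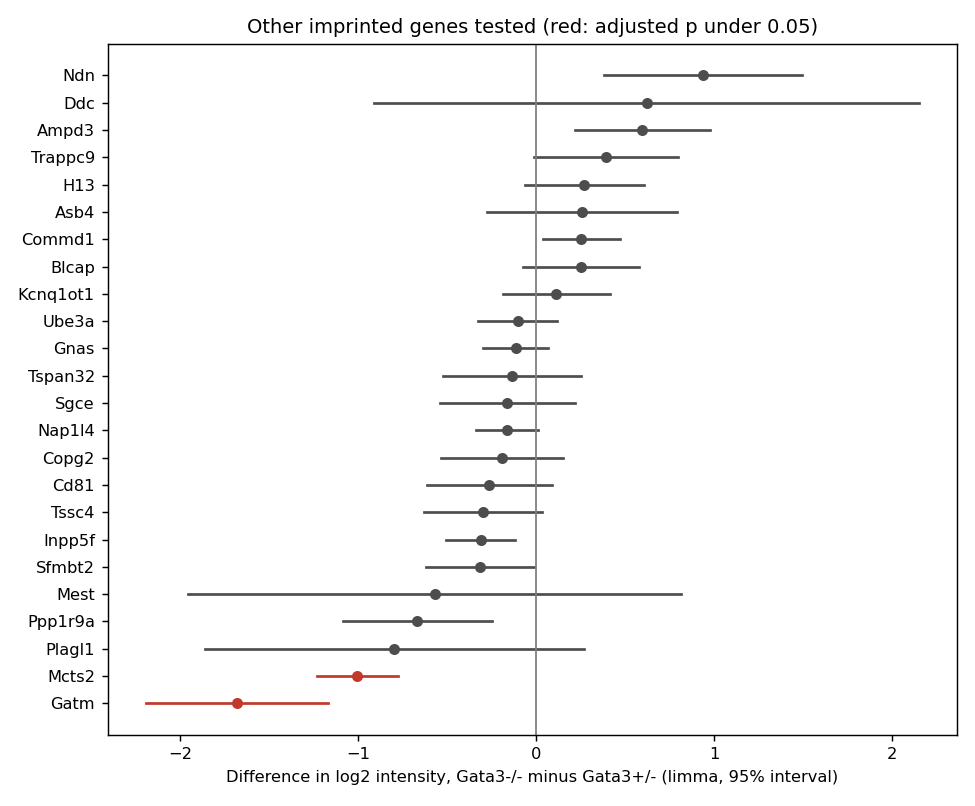
Difference in log2 GC-RMA intensity, Gata3-/- minus Gata3+/- (horizontal axis), for the 24 tested genes of the other imprinted list (rows), with points for the limma estimate and bars for its 95% interval. Gatm at -1.68 and Mcts2, in red, are the 2 with an adjusted p under 0.05, and Ndn at 0.94 is the highest.

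Some imprinted genes that did not pass also stood out, and these were chosen after their values were seen. Ndn, a paternally expressed growth suppressor, had 5 tested probe sets, all higher in Gata3-/- arrays by 0.89 to 1.01, with adjusted p between 0.0511 and 0.0771. Its brightest probe set stood at 11.62, 11.21 and 11.62 on Gata3-/- and at 10.77, 10.11 and 10.76 on Gata3+/- replicates 1, 2 and 3, which do not overlap. Mest, a paternally expressed gene of mesoderm, stood at 8.62, 7.08 and 8.39 on Gata3-/- and at 8.88, 7.70 and 9.22 on Gata3+/- replicates 1, 2 and 3. It was lowest on replicate 2 of both genotypes, as the stromal mean was, at -1.43 in Gata3-/- and -1.35 in Gata3+/- arrays relative to the others. Its genotype difference was -0.57 (limma adjusted p = 0.601).

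Neighbours within an imprinted domain were often split between measured and not measured, with domains grouped after values were seen. Over all genes 10302 of 18194 had a tested probe set, so such splits are not particular to imprinted genes. In the Kcnq1ot1 domain on chromosome 7, which holds Cdkn1c, 5 of 11 genes were measured. These were the noncoding RNA Kcnq1ot1 and Nap1l4, Tssc4, Cd81 and Tspan32, while Cdkn1c, Kcnq1, Phlda2, Slc22a18, Osbpl5 and Ascl2 reached at most 2.94. Around Peg10 on chromosome 6, Sgce, Ppp1r9a and Asb4 were measured, and Peg10, Calcr and Tfpi2 reached at most 3.32. Of the Igf2 domain Igf2 was measured and Ins2 and Th were not. Of the Igf2r domain Igf2r was measured, while Airn, the noncoding RNA that silences the paternal copy, and Slc22a2 reached at most 2.78. Beside Grb10, Ddc was measured and Cobl was not.

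Of the genes that maintain imprints or act on DNA methylation, those that were measured gave no call. Of 16 listed, 15 had a probe set annotated to them alone, and 13 were tested, each counted by its brightest tested probe set. In limma 0 passed, against 5.27% of all genes, and 0 had an unadjusted p under 0.05, against 25.8% of all genes. The differences were negative for 12 and positive for 1, against 5493 negative and 4809 positive over all genes. Their median was -0.13, against -0.02 over all genes, and no test was made of the list. The positive difference was that of Dppa3, at 0.0058, whose arrays spanned 0.017. Tet3, at -0.0037, spanned 0.030, so these 2 flat signals add little to the counts. Over these brightest probe sets the lowest adjusted p was 0.225. Dnmt1, which copies methylation after replication, stood at 11.30, 11.19 and 11.07 on Gata3-/- and at 11.28, 11.51 and 11.55 on Gata3+/- replicates 1, 2 and 3, a difference of -0.26. The other tested Dnmt1 probe sets, 1435122_x_at and 1447877_x_at, differed by -0.27 and -0.28, with genotypes that did not overlap. Their unadjusted limma p were 0.0313 and 0.0495 and their adjusted p 0.167 and 0.212, so neither passed. Uhrf1, which brings DNMT1 to replicated DNA, differed by -0.14 (adjusted p = 0.378). Tet1, which oxidises methylated cytosine, differed by -0.57 (adjusted p = 0.412), between -0.86 and -0.25 when each array was left out in turn, and was highest on replicate 2 of each genotype, by 0.87 in Gata3-/- and 0.94 in Gata3+/- arrays. Dnmt3l and Zfp57, active in germ cells and early embryos, were not measurable, and Dppa3, a maternal factor that shields methylation in early embryos, lay between 4.38 and 4.39 on all arrays.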

How the data were processed

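RNA of the sorted cells was measured on Affymetrix arrays. The authors deposited linear intensities, made with GC-RMA per the labels, and the submitters' processing notes name GCOS. The sources used here give no versions, settings or genome build. Deposited intensities ran from 2.28 to 77334.9, with array medians from 8.57 to 8.93. GC-RMA leaves low values at a floor, where differences carry little information, and the number of arrays limits the precision.

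The log2 of each intensity was taken, 64 control probe sets were left out, and the 20102 probe sets at 4 or more (16 before the log) on 3 or more of the 6 arrays were tested with limma 3.58.1 in R 4.3.3 (lmFit and eBayes, two-sided). P-values were adjusted by Benjamini and Hochberg over all of them. The fit was checked on simulated data. The platform annotation gave 1 gene symbol for 34958 probe sets and several for 932, and it did not list 9211. Of these, 34754 were matched to a RefSeq table of GRCm38.p6 and 0 symbols changed. A listed gene was represented by its brightest tested probe set. Plots used matplotlib 3.10.9 in Python 3.11.15.

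Members, lists and alternatives were chosen with earlier results of these data known. All members are named, with the called members of each list or, where none passed, the 3 with the smallest p. The 3 genes most like a member in pattern are named where its brightest probe set ranged over at least 2 log2 units, a rule written for 7 members that held for Igf2, Meg3 and Grb10 and did not cover Igf2r. Genotypes and replicate numbers came from the titles. Same-numbered arrays had deviations from their genotype means that correlated at 0.005 for number 1, 0.695 for number 2 and 0.429 for number 3. Arrays of different numbers correlated at -0.618 to 0.424. These values do not settle whether the numbers are pairs. The main fit did not take them as pairs, and the replicate block was an alternative. Alternatives changed the filter, floor, scaling, variance prior, array weights, block and arrays.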

Additional observations from a re-analysis of the deposited data

How the results depend on the processing

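No member probe set was called in any alternative run. All 878 called probe sets set the background, and this count was 166 without a filter, 1349 with a variance trend and robust eBayes, 2075 with array weights and 4 without both arrays numbered 2. It was 0 to 9 when each array was left out in turn, fits that hold fewer arrays. With the replicate block it was 498, and 0 members were called. Igf2 then had a limma adjusted p of 0.0733, against 0.397 without the block, and Tet1 had 0.0532, against 0.412. The block left 3 other imprinted genes called, against 2 without it, and Igfbp4 1437405_a_at gained a call (adjusted p = 0.0431), as it did with array weights (0.0498). That list gave 1 without a filter, 6 with array weights, 0 when both arrays numbered 2 were dropped and 0 when each array was dropped in turn.

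Of the 10 tested member probe sets, Igf2, Igf2r and both of Impact kept their sign in every alternative that tested them. Array weights turned Peg3 1417355_at to 0.063 and Grb10 1425457_a_at to -0.21. Without both arrays numbered 2, Peg3 1417355_at was 0.060, 1417356_at 0.0073 and 1433924_at 0.016, while Grb10 1425457_a_at was -0.18 and 1425458_a_at -0.019. Leaving out each array in turn gave -0.13 to 0.084, -0.014 to 0.013 and -0.057 to 0.053 for those Peg3 probe sets. It gave -0.36 to 0.32 and -0.035 to 0.96 for those of Grb10, and -0.99 to 0.087 for Meg3. None of these was called, and the cause of the changes was not tested.

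The median over members of replicate 2 minus the others was -0.05 in Gata3-/- arrays (-0.11 with the stricter filter, 0.0047 without a filter, 0.0053 with quantile normalization) and -0.03 in Gata3+/- arrays (0.0087 without a filter, 0.024 with quantile normalization, 0.00055 with median centring), so its sign is not settled. Gatm also missed the threshold without a filter (adjusted p = 0.0668, difference -1.68). Without both arrays numbered 2 the adjusted p was 0.137 for Gatm, at a difference of -1.51, and 0.0787 for Mcts2, at -0.999.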
